A study of Mus musculus with 40 samples.

Results

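The interferon response genes are a list of 36 genes that interferons induce or that carry the interferon signal. The list was chosen by name, with earlier results of these data known. Of the 36, 34 had a row among the 15958 genes of the expression table. They fall into 3 groups by function: 9 interferon-inducible GTPases, 20 type I interferon genes, and 5 others, which are the transcription factor Irf1, 2 chemokines and 2 subunits of the immunoproteasome. Gbp6 and Ifi44 were not analysed here. Small bowel resection (SBR) in mice is a model of short bowel syndrome, and WUSTL0717 is an agonist of the liver X receptor (LXR) given by mouth and retained in the gut. Wild-type C57BL/6 males were operated at 8 weeks of age, and by the labels SBR took out 50 to 60 percent of the small intestine, where the methods of the study give a larger share. From 3 weeks after the operation they received vehicle, or WUSTL0717 at 30 mg/kg, daily for 7 weeks. RNA was sequenced from duodenum, ileum (past the anastomosis) and liver in 3 groups, called sham, SBR vehicle and SBR WUSTL0717, of which only the last had the drug. The duodenum and the ileum each gave 3, 4 and 4 libraries in that order and the liver 5, 8 and 5, so 40 in all. No sham mice received WUSTL0717, so the response to the drug is measured in resected mice alone. The labels do not say which libraries of different tissues came from the same mouse.

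Interferons are secreted proteins, and cells make those of type I on sensing microbial or misplaced nucleic acids. Genes induced by type I interferons often carry the interferon-stimulated response element in their promoters, whereas many of those induced by interferon gamma carry the gamma-activated sequence. Irf1 is itself induced by interferon gamma and switches on further genes, among them GTPases that attack the vacuoles of intracellular microbes. In the intestine, lymphocytes are a main source of interferon gamma. In the liver, macrophages and hepatocytes both respond to type I interferons.

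The promoters of 7 members are shown as examples that hold letter matches to the elements named above. Each line gives the 120 bases before the transcription start from RefSeq (GRCm38.p6), 5′ to 3′ on the strand of the gene. Capitals mark matches, on either strand, to GAAA-NN-GAAA, a core of the interferon-stimulated response element, or to TTCNNNGAA, the gamma-activated sequence, which reads the same on both strands.
Irgm1 (chr11:48871421-48871540, minus strand): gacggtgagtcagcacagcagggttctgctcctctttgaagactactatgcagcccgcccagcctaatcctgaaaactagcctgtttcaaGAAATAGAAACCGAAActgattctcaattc
Irgm2 (chr11:58214857-58214976, plus strand): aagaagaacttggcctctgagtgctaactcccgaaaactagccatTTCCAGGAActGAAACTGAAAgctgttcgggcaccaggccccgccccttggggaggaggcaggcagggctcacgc
Igtp (chr11:58199436-58199555, plus strand): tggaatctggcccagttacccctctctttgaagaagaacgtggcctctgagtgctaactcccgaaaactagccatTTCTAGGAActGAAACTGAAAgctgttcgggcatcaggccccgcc
Irf1 (chr11:53769894-53770013, plus strand): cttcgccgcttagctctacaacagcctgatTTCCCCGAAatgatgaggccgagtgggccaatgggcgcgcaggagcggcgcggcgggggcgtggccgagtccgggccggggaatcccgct
Psmb8 (chr17:34198075-34198194, plus strand): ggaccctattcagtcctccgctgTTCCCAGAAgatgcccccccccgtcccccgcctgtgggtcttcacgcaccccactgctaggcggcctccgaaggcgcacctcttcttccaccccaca
Isg15 (chr4:156200819-156200938, minus strand): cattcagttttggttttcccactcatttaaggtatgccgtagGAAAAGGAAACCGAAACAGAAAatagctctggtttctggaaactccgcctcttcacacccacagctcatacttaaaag
Ifit1 (chr19:34640769-34640888, plus strand): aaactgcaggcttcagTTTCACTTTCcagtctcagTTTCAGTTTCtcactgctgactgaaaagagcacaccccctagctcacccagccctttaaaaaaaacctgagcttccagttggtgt

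A promoter window of 300 bases, 250 before the start and 50 after, was at hand for 26 of the 34 members. GAAA-NN-GAAA occurred in 16 of these 26, in all 7 GTPases with a window and in 8 of 14 type I genes, against 3.99 percent of the 27025 genes of the promoter table. TTCNNNGAA occurred in 9 of the 26 against 9.55 percent of all genes. Irgm2, Igtp, Tgtp1, Gbp7, Oas1a and Bst2 held both, against 0.54 percent of all genes, and the matches overlapped in 1 of these windows. As the lines above show, Irgm2 and Igtp, which are neighbours on chromosome 11, carry the pair of elements at the same spacing in nearly the same surrounding letters. A match is a string of letters and not a measured binding site.

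The values are log2 TPM (an abundance scaled for gene length and library size, on a log2 scale) after a batch correction that handled intestine and liver as separate batches. The correction changes the values of each gene, so levels are compared within the intestine or within the liver only. Folds and log2 differences are those of the corrected values. They depend on the correction and on the pseudocount, a constant added before logs were taken, which is not given. The read depth behind the values is unknown. The ileal bile acid binding protein Fabp6 lay between 5.87 and 8.54 log2 TPM in the 11 ilea, and the duodenal factor Pdx1 lay between 3.89 and 4.81 in the 11 duodena and at 0.47 or below in the ilea. In the liver, the median over all genes ran from 3.05 in sham library 2 to 3.77 in SBR vehicle library 4. The same libraries held the lowest and highest mean of the 34 members, 3.04 and 4.70. Member results in the liver are therefore also given without each of these libraries and after centring each library on its own median. The median difference of all genes was 0.25 between SBR vehicle and sham livers and -0.36 between SBR vehicle and sham duodena.

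In the liver, resection went with higher levels of nearly the whole list. Between SBR vehicle and sham livers, 30 of the 34 members rose and none fell (limma, adjusted p under 0.05 over 15896 genes), with a median log2 difference of 0.78. All 20 type I genes rose, as did 7 of 9 GTPases and 3 of the 5 others. Much of the table moved the same way, with 37.5 percent of all genes called higher. After centring, 25 members rose and 1 fell, beside 20.4 percent of all genes higher and 28.8 percent lower, and the median of the members was 0.47. The lowest SBR vehicle liver lay above the highest sham liver for 21 members, against 15.6 percent of all genes. SBR vehicle library 4 held the highest of the 18 liver values for 27 members, and sham library 2 the lowest for 31. Without the former 29 members rose, and without the latter 28. In bulk tissue, more cells of a type and more RNA per cell cannot be told apart.

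**Figure D1:**
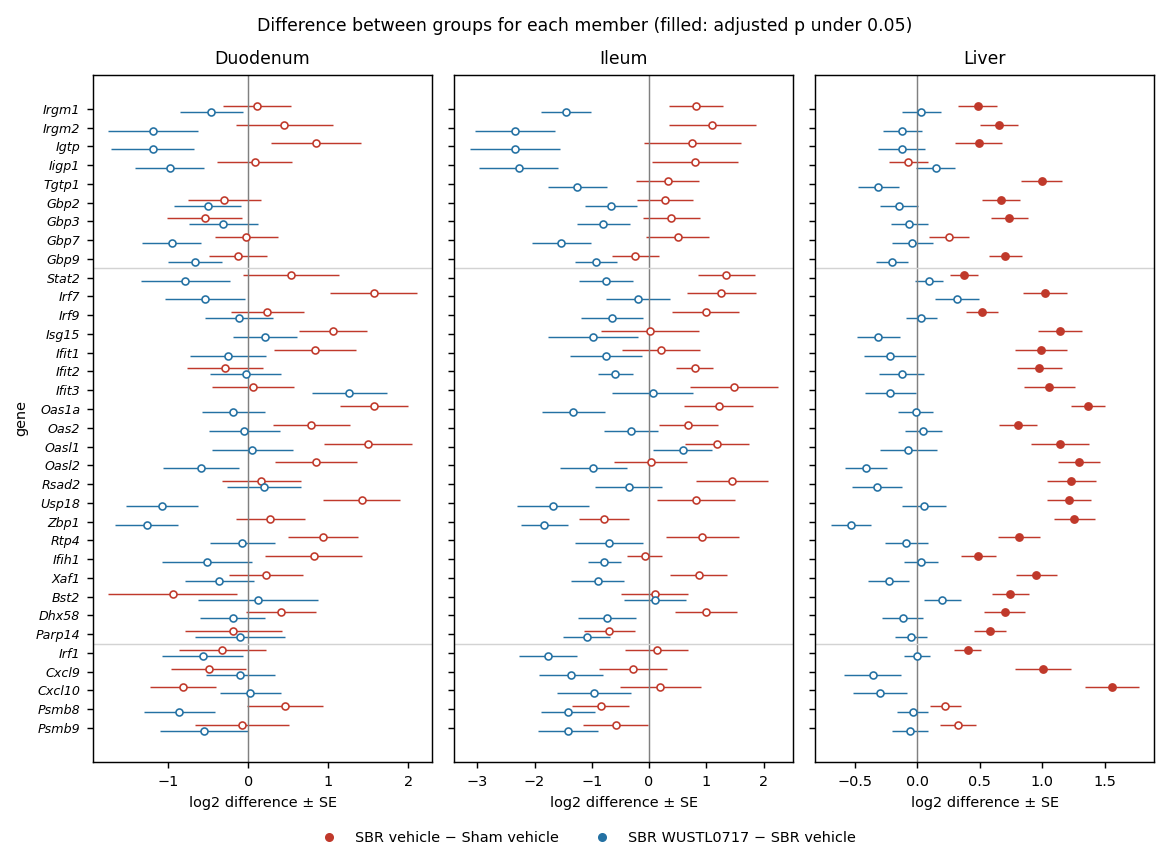
Difference in log2 TPM between groups for each of the 34 members in duodenum, ileum and liver, with bars of 1 standard error from limma. Red marks SBR vehicle minus sham, blue marks SBR WUSTL0717 minus SBR vehicle, and filled points have an adjusted p under 0.05. Of the points drawn, those filled are the 30 red points of the liver. The horizontal scale differs between panels, and Tgtp1 was below the filter in the duodenum.

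Among the type I genes of the liver, the oligoadenylate synthetases, which activate RNA decay on sensing double-stranded RNA, and their relatives rose clearly. Oas1a stood at 3.67, 3.26, 3.29, 3.29 and 3.48 log2 TPM in the 5 sham livers and at 4.44 to 5.16 (median 4.82) in the 8 SBR vehicle livers. The groups did not overlap, and the fold was 2.58 (log2 difference 1.37 ± 0.14 SE, limma adjusted p = 3.40e-07, exact two-sided permutation p = 0.000777, the smallest that 8 against 5 libraries allow). Oas1a has a near-identical copy, so its reads may be partly lost or shared. Oasl2 stood at 2.94, 2.66, 3.00, 2.89 and 2.93 in sham livers and 3.72 to 4.89 (median 4.10) in SBR vehicle livers, a 2.45-fold rise. Oasl1 ran at 3.74 to 4.85 log2 TPM in sham and 5.11 to 6.50 in SBR vehicle livers. Oas2 ran at 1.59 to 1.90 log2 TPM in sham and 2.13 to 3.17 in SBR vehicle livers. These ranges did not overlap either.

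Effectors that modify proteins or sense viral nucleic acids rose with them in the liver. Zbp1, a sensor of Z-form nucleic acids that can start cell death, stood at 2.90, 2.57, 2.90, 2.95 and 3.12 log2 TPM in sham livers and 3.70 to 4.77 (median 4.09) in SBR vehicle livers. Its fold was 2.39 (log2 difference 1.26 ± 0.16 SE, limma adjusted p = 5.85e-06). Isg15, a ubiquitin-like modifier, stood at 4.53, 4.02, 4.51, 4.59 and 4.62 in sham livers and 5.17 to 6.35 (median 5.45) after resection. Usp18, which removes Isg15 from proteins and restrains the type I receptor, ran at 2.62 to 3.11 log2 TPM in sham and 3.65 to 5.03 in SBR vehicle livers. The folds of Isg15 and Usp18 were 2.21 and 2.32, with no overlap of groups. Rsad2 (viperin), an antiviral enzyme, ran at 1.85 to 2.29 log2 TPM in sham and 2.63 to 4.10 in SBR vehicle livers. Xaf1, which promotes apoptosis, ran at 1.72 to 2.46 log2 TPM in sham and 2.78 to 3.76 in SBR vehicle livers. Bst2 (tetherin), which holds budding virus at the cell surface, ran at 6.65 to 6.88 log2 TPM in sham and 7.17 to 7.77 in SBR vehicle livers. The 3 genes did not overlap between groups, with folds of 2.35, 1.94 and 1.68.

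The Ifit genes, which bind viral RNA, moved by like amounts. Ifit1 ran at 2.57 to 3.39 log2 TPM in sham and 3.65 to 5.04 in SBR vehicle livers, a 1.99-fold rise. Ifit2 ran at 1.16 to 1.74 log2 TPM in sham and 1.95 to 3.07 in SBR vehicle livers, a 1.97-fold rise. Ifit3, which has a near-identical neighbour that may share its reads, ran at 2.84 to 3.70 log2 TPM in sham and 3.99 to 5.27 in SBR vehicle livers, a 2.08-fold rise. All 3 had their highest value in SBR vehicle library 4, and none overlapped between groups.

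Of the transcription factors on the list, Irf7 rose most. Irf7, which amplifies the type I response, stood at 5.08, 4.58, 4.92, 4.89 and 5.11 log2 TPM in sham livers and 5.50 to 6.36 (median 6.02) in SBR vehicle livers, a 2.03-fold rise. Stat2 and Irf9, which pass on the signal of the type I receptor, rose 1.30- and 1.43-fold. Stat2 ran at 4.95 to 5.45 log2 TPM in sham and 5.18 to 5.97 in SBR vehicle livers, with overlap. Irf9 ran at 3.83 to 4.15 log2 TPM in sham and 4.16 to 5.01 in SBR vehicle livers, without overlap. The RNA sensor Ifih1 (MDA5) rose 1.40-fold and ran at 3.68 to 4.38 log2 TPM in sham and 4.14 to 5.11 in SBR vehicle livers. Dhx58 (LGP2), a regulator of that sensor, rose 1.62-fold and ran at 2.57 to 3.16 log2 TPM in sham and 3.26 to 4.39 in SBR vehicle livers. The ADP-ribosyl transferase Parp14 rose by 0.58 on the log2 scale, and its values ran at 4.32 to 4.87 log2 TPM in sham and 4.85 to 5.71 in SBR vehicle livers. Rtp4, a receptor chaperone, rose 1.76-fold and ran at 2.78 to 3.55 log2 TPM in sham and 3.51 to 4.74 in SBR vehicle livers. Parp14, Rtp4 and Ifih1 overlapped between groups.

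The GTPases were less uniform in the liver. Tgtp1, of the immunity-related family, stood at 0.87, 0.67, 0.81, 0.78 and 0.81 log2 TPM in sham livers and 1.09 to 2.32 (median 1.70) in SBR vehicle livers, a 1.99-fold rise without overlap (limma adjusted p = 9.63e-05). The guanylate-binding proteins Gbp2, Gbp3 and Gbp9, which coat and break pathogen vacuoles, rose 1.59-, 1.67- and 1.63-fold. Gbp2 ran at 2.60 to 2.89 log2 TPM in sham and 2.78 to 3.73 in SBR vehicle livers. Gbp3 ran at 2.28 to 2.94 log2 TPM in sham and 3.10 to 3.82 in SBR vehicle livers. Gbp9 ran at 1.82 to 2.25 log2 TPM in sham and 2.35 to 3.22 in SBR vehicle livers. Irgm1, Irgm2 and Igtp are the regulatory GTPases that keep the others off host membranes. Irgm2 stood at 4.05, 4.00, 4.64, 4.51 and 4.26 in sham livers and 4.42 to 5.52 (median 4.92) in SBR vehicle livers (log2 difference 0.65 ± 0.15 SE, adjusted p = 0.00229). Irgm1 stood at 3.28, 2.89, 3.66, 3.57 and 3.27 in sham livers and 3.24 to 4.39 (median 3.77) in SBR vehicle livers (0.49 ± 0.16 SE, adjusted p = 0.0182). Igtp ran at 3.90 to 4.60 log2 TPM in sham and 4.06 to 5.42 in SBR vehicle livers (0.49 ± 0.19 SE, adjusted p = 0.0425). All 3 overlapped between groups. Iigp1 did not pass, at 3.96 to 4.38 log2 TPM in sham and 3.49 to 4.83 in SBR vehicle livers (log2 difference -0.07 ± 0.16 SE, adjusted p = 0.740), and was the member that fell after centring (-0.38, adjusted p = 0.00218). Gbp7 did not pass either (log2 difference 0.25 ± 0.16 SE, adjusted p = 0.217).

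Calls among the smaller differences in the liver depended on the scaling. After centring, Irgm1, Igtp, Ifih1, Stat2 and Irf1 no longer passed, with log2 differences of 0.18, 0.18, 0.18, 0.07 and 0.10. Irgm1 was also lost without sham library 2 (log2 difference 0.37), and Igtp without any of 8 of the 13 libraries. The gene models of Irgm2 and Igtp overlap on the same strand, and Tgtp1 has a near-identical copy, so reads of these genes may be partly lost or shared.

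The chemokines moved more than Irf1 and the immunoproteasome in the liver. Cxcl10, which draws T and NK cells through the receptor CXCR3, showed the largest log2 difference of the 34 members in this comparison. It stood at 1.08, 1.24, 1.03, 1.13 and 1.24 log2 TPM in sham livers and 2.16 to 3.14 (median 2.73) in SBR vehicle livers, a 2.95-fold rise (log2 difference 1.56 ± 0.22 SE, limma adjusted p = 1.18e-05). Cxcl9, a ligand of the same receptor, ran at 1.61 to 2.15 log2 TPM in sham and 2.18 to 3.62 in SBR vehicle livers, a 2.01-fold rise. Neither overlapped between groups. Irf1 stood at 5.22, 5.00, 5.57, 5.35 and 5.13 in sham livers and 5.36 to 5.92 (median 5.66) in SBR vehicle livers, a 1.32-fold rise with overlap. Psmb8 and Psmb9, which shape peptides for antigen presentation, did not pass, with log2 differences of 0.22 ± 0.12 SE and 0.33 ± 0.14 SE (adjusted p = 0.150 and 0.0719).

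Further genes of the pathway in the liver mostly moved upward as well. There were 58 other ligands, receptors, signaling proteins, sensors and targets of interferons with a row. Of these, 42 rose and 1 fell between sham and SBR vehicle livers, where 37.5 percent of all genes were called higher and 4.48 percent lower. Those with the smallest p were Irf8, a factor of myeloid cells (log2 difference 1.08), Ifi27l2a (1.61), Ciita, the activator of MHC class II genes (1.06), Sting1, the adaptor of DNA sensing (1.47), Ifnlr1, a chain of the type III interferon receptor (0.93), and Gbp8 (0.66). Counts for the pathway genes and the cell type markers were not recomputed after centring. Cell type markers moved too. Of 5 macrophage markers 3 rose, Cd68 by 0.99, C1qb by 0.74 and C1qa by 0.66, and the mean of the list ran from 4.98 to 5.41 in sham and from 5.25 to 6.26 in SBR vehicle livers. Of 5 T cell markers 2 rose, with list means of 1.43 to 1.65 and 1.58 to 1.94. That is near the share of all genes, of which 37.5 percent were called higher. All 4 epithelial markers rose, Epcam by 2.68, with list means of 5.37 to 5.68 and 6.39 to 7.11. The hepatocyte gene Serpina1c fell by 1.64. The mean of the 3 hepatocyte genes ran from 7.83 to 8.16 in sham and from 6.325 to 7.59 in SBR vehicle livers. Bst2 is a member here and is also used as a marker of plasmacytoid dendritic cells. The part of these cells in the higher levels of the members was not tested.

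WUSTL0717 was not followed by a called change of any member in the liver. Between SBR WUSTL0717 and SBR vehicle livers none of 34 passed limma or the unmoderated test, where limma called 4.12 percent of all genes, and the median log2 difference was -0.08. An unadjusted p under 0.05 was reached by 2 members, Zbp1 (-0.53 ± 0.16 SE, limma adjusted p = 0.0753) and Oasl2 (-0.41 ± 0.17 SE, adjusted p = 0.195), both lower, against 8.7 percent of all genes. Zbp1 stood at 3.71, 3.23, 3.37, 4.11 and 3.66 log2 TPM in treated livers, beside 3.70 to 4.77 in SBR vehicle livers. After centring, 3 of 34 members were called lower, Zbp1 (-0.53, adjusted p = 0.00786), Oasl2 and Gbp9, a share near that of all genes, of which 8.19 percent were called lower. Irf1 stood at 5.80, 5.58, 5.41, 5.71 and 5.78, Irgm1 at 3.97, 3.61, 3.90, 3.96 and 3.81 and Irgm2 at 4.84, 4.63, 4.68, 5.15 and 4.84 in treated livers, all within the range of the vehicle livers. In their groups Tgtp1 (-0.31) and Cxcl9 (-0.36) had the smallest p. Tgtp1 stood at 1.42, 1.31, 1.22, 1.51 and 1.88 and Cxcl9 at 2.47, 2.15, 2.28, 2.89 and 3.00 in treated livers, overlapping the vehicle livers.

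Against sham, 28 members were higher in treated livers, the 20 type I genes among them, where 27.8 percent of all genes were, and after centring 15 were called higher, beside 10.7 percent of all genes. This comparison shares its sham livers with the one of resection. None of the 58 further pathway genes passed between treated and vehicle livers, and the smallest p belonged to Ciita (-0.40 ± 0.11 SE, adjusted p = 0.0568) and Sting1 (-0.50 ± 0.16 SE, adjusted p = 0.0890). The epithelial markers Epcam, Vil1 and Cdh1 fell by 1.10, 0.69 and 0.61 in treated livers, whereas the mean of the macrophage markers ran from 5.75 to 6.08 there, beside 5.25 to 6.26 with vehicle.

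**Figure D2:**
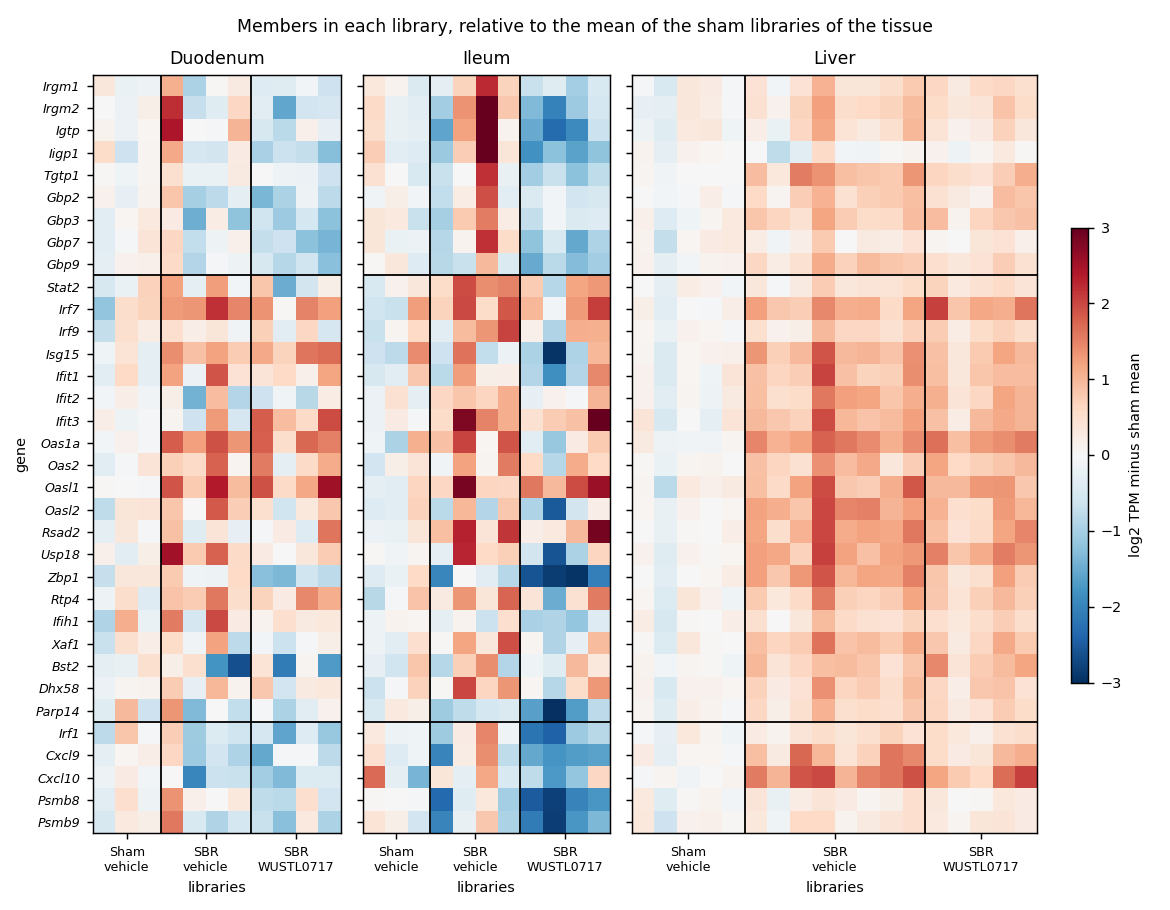
Each of the 34 members (rows) in each of the 40 libraries (columns, in replicate order within a group), as log2 TPM minus the mean of the sham libraries of that tissue. Colours saturate at 3 above and below 0, and lines separate the groups. In the ileum the GTPases are highest in SBR vehicle library 3, and in the liver the type I genes are above sham in most resected columns.

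In the ileum, host defense genes were compared between the drug and its vehicle. None of the 34 members passed limma or the unmoderated test between SBR WUSTL0717 and SBR vehicle ilea, where limma called 0.0698 percent of all genes. Still, 31 of 34 lay lower in treated ilea, and 16 had an unadjusted p under 0.05, all lower, against 2.75 percent of all genes. The median log2 difference was -0.94, and 0.00 for all genes. It was -1.45 for the GTPases, -0.74 for the type I genes and -1.41 for the 5 others. The members were measured in the same 8 libraries, so the 16 are not separate observations. The study reports lower Irf1, Irgm1 and Irgm2 in this comparison, and the members were chosen with earlier results of these data known. The mean of the GTPases was 2.53, 3.93, 5.76 and 3.63 log2 TPM in SBR vehicle libraries 1 to 4 and 2.30, 2.54, 2.25 and 2.72 in treated libraries 1 to 4. Vehicle library 3 stood above all others, and vehicle library 1 lay within the treated range.

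Irf1 stood at 4.91, 6.21, 7.44 and 5.83 log2 TPM in SBR vehicle ilea, at 3.77, 3.53, 4.88 and 5.14 in treated ilea and at 6.26, 5.81 and 5.83 in sham ilea. The lowest vehicle ileum fell within the treated range. The log2 difference was -1.77 ± 0.51 SE, 3.40-fold lower, with a limma adjusted p of 0.473 and an exact two-sided permutation p of 0.0571, where 0.0286 is the smallest that 4 against 4 libraries allow. Irgm1 stood at 3.69, 4.65, 6.22 and 4.66 in vehicle, 3.32, 3.62, 2.96 and 3.53 in treated and 4.31, 4.09 and 3.56 in sham ilea. Treated and vehicle ilea did not overlap for Irgm1 (-1.45 ± 0.44 SE, limma adjusted p = 0.497, exact permutation p = 0.0286). Irgm2 stood at 3.49, 5.89, 7.82 and 5.35 in vehicle, 3.21, 2.52, 3.44 and 4.02 in treated and 5.11, 4.30 and 4.19 in sham ilea. Its groups overlapped (-2.34 ± 0.70 SE, 5.07-fold lower, limma adjusted p = 0.493). Without vehicle library 3, the log2 differences were -1.32 for Irf1, -0.98 for Irgm1 and -1.61 for Irgm2.

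**Figure D3:**
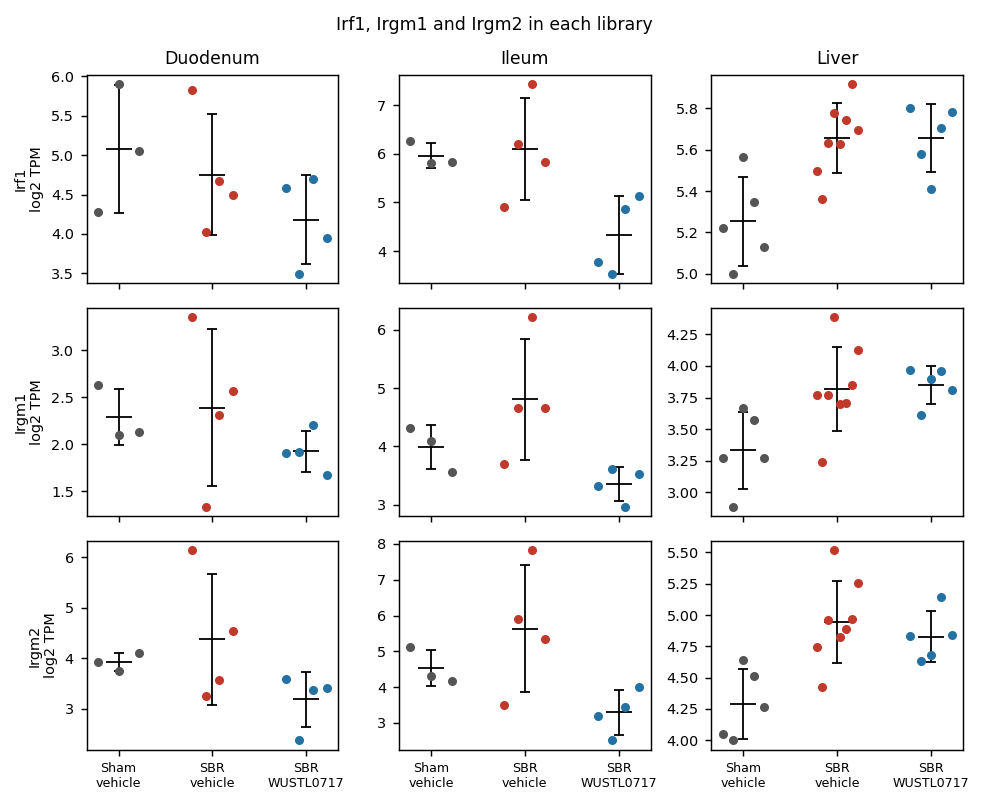
Irf1, Irgm1 and Irgm2 in log2 TPM, 1 point per library, in duodenum, ileum and liver by group, with the mean and a bar of 1 SD. In the ileum the SBR vehicle points of Irgm2 run from 3.49 to 7.82 and the treated points from 2.52 to 4.02. The vertical scale differs between panels.

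All 9 GTPases had lower means in treated than in vehicle ilea, from -2.35 for Igtp to -0.67 for Gbp2, and 7 had an unadjusted p under 0.05. Igtp stood at 2.38, 5.17, 7.23 and 4.05 log2 TPM in vehicle and 2.44, 1.64, 2.05 and 3.32 in treated ilea, with overlap. Iigp1 stood at 3.20, 5.05, 7.57 and 4.69 in vehicle and 2.51, 3.08, 2.71 and 3.10 in treated ilea, without overlap (-2.28 ± 0.69 SE, limma adjusted p = 0.501). All 9 had their highest value of the 11 ilea in vehicle library 3. Without that library, 5 of 9 had an unadjusted p under 0.05, and the median difference of the group was -0.97.

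The type I genes ranked the ilea in another order. Their mean was 3.21, 4.70, 3.66 and 4.25 log2 TPM in vehicle libraries 1 to 4 and 3.12, 2.22, 3.38 and 4.34 in treated libraries 1 to 4, with overlap. Vehicle library 2 held the highest of the 11 values for 7 of the 20 genes, library 4 for 6, and library 3 for Bst2 alone. Treated library 4 held the highest value of Ifit1, Ifit3, Irf7 and Rsad2, whereas treated library 2 held the lowest for 12 of the 20. Ifit3 stood at 2.64, 2.95, 3.05 and 6.26 in treated and 2.73, 4.99, 3.67 and 3.26 in vehicle ilea. Oas1a stood at 3.02, 2.20, 3.58 and 4.12 in treated and 4.22, 5.36, 3.40 and 5.23 in vehicle ilea. Usp18 stood at 2.37, 0.32, 1.96 and 3.55 in treated and 2.60, 5.18, 3.50 and 3.63 in vehicle ilea. An unadjusted p under 0.05 was reached by Zbp1, Ifih1, Usp18, Parp14 and Oas1a, all with lower means in treated ilea. The median difference of the type I genes was -0.31 without treated library 2.

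**Figure D4:**
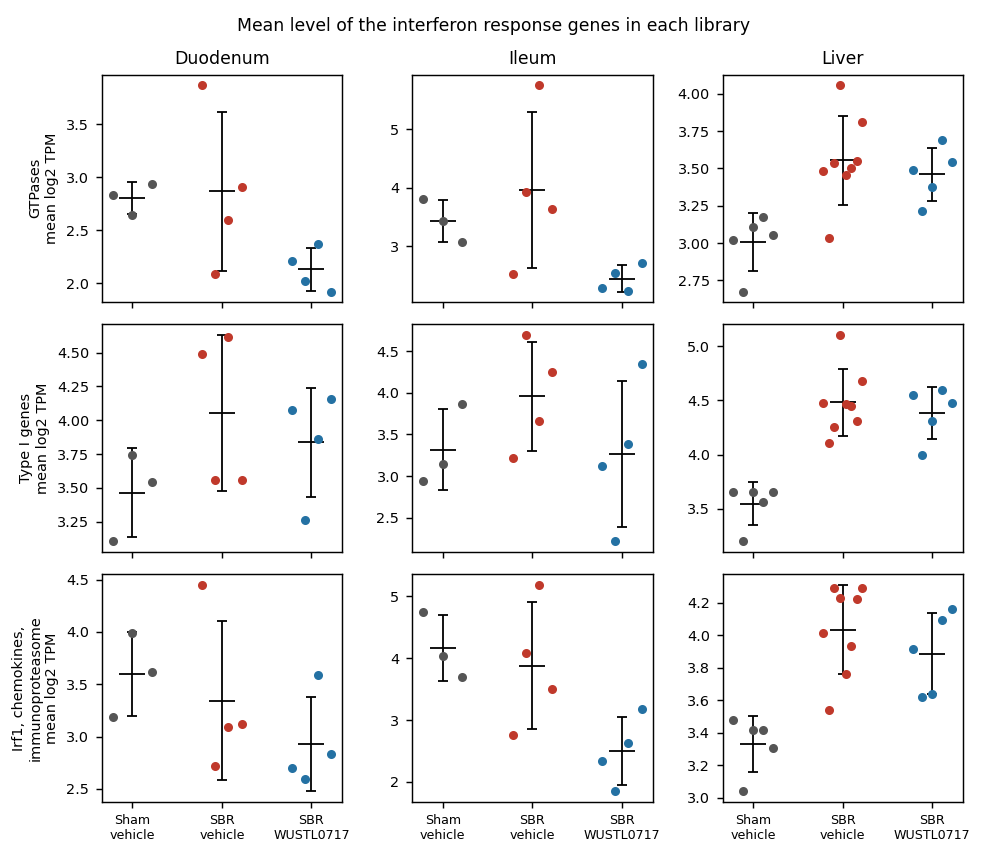
Mean log2 TPM over the GTPases, the type I genes and the 5 other members, 1 point per library, by tissue and group, with the mean and a bar of 1 SD. In the ileum the GTPase means of treated libraries lie between 2.25 and 2.72 and those of SBR vehicle libraries between 2.53 and 5.76. In the liver the type I means of the resected groups lie above those of the 5 sham mice. The vertical scale differs between panels.

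Zbp1 had the smallest p of the 34 members in the ileum. It stood at 2.33, 4.27, 3.98 and 3.42 log2 TPM in vehicle, 1.68, 1.44, 1.34 and 2.22 in treated and 3.89, 4.08 and 4.88 in sham ilea. Each treated ileum lay below each vehicle ileum, and the mean was 3.55-fold lower (-1.83 ± 0.41 SE, limma adjusted p = 0.305, exact permutation p = 0.0286). With Irgm1 and Iigp1 it made 3 members without overlap between treated and vehicle ilea, against 1.27 percent of all genes. Psmb8, Psmb9 and Cxcl9 also had unadjusted p under 0.05, with log2 differences of -1.42, -1.41 and -1.36.

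Of the 58 further pathway genes none passed between treated and vehicle ilea, 19 had higher means in treated ilea, and the median log2 difference was -0.34. The smallest p belonged to Ifi27l2a, higher in treated ilea (1.87 ± 0.43 SE, adjusted p = 0.325), and to Ifi47, a GTPase of the immunity-related family, lower there (-1.73 ± 0.44 SE, adjusted p = 0.416). Markers of cytotoxic and NK cells were compared as well. The 3 genes of that list with a row had lower means in treated ilea, Gzma by 1.02, Gzmb by 0.87 and Nkg7 by 0.41 on the log2 scale, and none passed. Their mean ran from 1.79 to 2.86 in vehicle, from 1.33 to 1.82 in treated and from 2.58 to 2.75 in sham ilea. The mean of the T cell markers ran from 1.16 to 2.16 in vehicle, highest in library 3, and from 0.93 to 1.75 in treated ilea. The mean of the epithelial markers ran from 6.62 to 6.96 and from 6.73 to 6.96. The part of these cells in the lower means of the members was not tested.

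Resection alone gave no call among the members in the ileum. Between SBR vehicle and sham ilea 27 of 34 had higher means, against 57.6 percent of all genes. The median log2 difference was 0.59, beside 0.07 for all genes. For the members it was 0.24 without SBR vehicle library 3 and 0.90 without library 1. None passed limma or the unmoderated test, where limma called 0.349 percent of all genes. Stat2, Ifit2 and Rsad2 had an unadjusted p under 0.05, all higher, which is 3 of 34 against 5.52 percent of all genes. After centring 25 members had higher means and none had an unadjusted p under 0.05. Stat2 stood at 4.23, 4.82 and 5.05 log2 TPM in sham and 5.25, 6.67, 6.08 and 6.19 in SBR vehicle ilea, without overlap (1.35 ± 0.50 SE, limma adjusted p = 0.412). Irf1 differed by 0.13 ± 0.55 SE, and by -0.32 without SBR vehicle library 3. Irgm1 and Irgm2 differed by 0.82 ± 0.47 SE and 1.10 ± 0.76 SE, with overlapping groups. Without SBR vehicle library 3 they differed by 0.35 and 0.38, and without library 1 Irgm2 differed by 1.82. Psmb8 stood at 4.68, 4.66 and 4.58 in sham and 2.31, 4.27, 4.96 and 3.63 in SBR vehicle ilea. Of the 58 further pathway genes none passed. The smallest p belonged to Mavs, the adaptor of RNA sensors (-1.41), and Ifngr1, a chain of the interferon gamma receptor (1.05).

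Treated ilea were lower than sham ilea for 2 members, Zbp1 and Psmb8, where 0.501 percent of all genes were called lower. Zbp1 was 6.10-fold lower (-2.61 ± 0.44 SE, limma adjusted p = 0.0122). Psmb8 stood at 2.14, 1.84, 2.65 and 2.89 log2 TPM in treated ilea and was 4.80-fold lower than sham (-2.26 ± 0.50 SE, adjusted p = 0.0399). Neither passed the unmoderated test or without sham library 2, and 1 call was left without any of 5 of the other libraries or after centring. Lower in each treated than in each sham ileum were 13 members, against 3.73 percent of all genes, of which 6 were GTPases. Oasl1 and Ifit3 were higher in each treated than in each sham ileum, 2 of 34 against 9.46 percent of all genes. Among the further pathway genes, Psme1, an activator of the immunoproteasome, fell by 1.87, and Ifi27l2a and Ifi27 rose by 2.65 and 2.60. The plasma cell marker Jchain fell by 1.57, and its part was not tested. This comparison shares its treated ilea with the comparison of the drug and its sham ilea with that of resection.

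In the duodenum 33 members passed the filter, all but Tgtp1, and none was called. Between SBR vehicle and sham duodena limma called 0 percent of all genes and the unmoderated test no member, while 5 members had an unadjusted p under 0.05, all higher and all of type I, against 3.32 percent of all genes. The median log2 difference was 0.66 for the type I genes and 0.02 for the GTPases, beside -0.36 for all genes. Without SBR vehicle library 1 the type I and GTPase medians were 0.44 and -0.26. Without vehicle library 3 the type I median was 0.42, and without sham library 1 it was 0.34. The GTPase median was 0.24 without vehicle library 2. Oas1a stood at 2.89, 3.10 and 2.94 log2 TPM in sham and 4.80, 4.21, 4.89 and 4.30 in SBR vehicle duodena, without overlap (1.57 ± 0.42 SE, limma adjusted p = 0.235, exact permutation p = 0.0286). Irf7, Isg15, Oasl1, Rtp4 and Usp18 did not overlap either, which makes 6 of 33 higher without overlap, against 3.41 percent of all genes. After centring, Oas1a and Usp18 were called (1.98 and 1.82, adjusted p = 0.0348 and 0.0468), where 0.61 percent of all genes were called higher. The centred medians were 1.06 for the type I genes and 0.43 for the GTPases, beside 0.04 for all genes.

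The GTPases and Irf1 overlapped between SBR vehicle and sham duodena. Igtp stood at 4.43, 4.13 and 4.38 log2 TPM in sham and 6.75, 4.33, 4.25 and 5.33 in SBR vehicle duodena. Cxcl10 stood at 1.78, 2.20 and 1.86 in sham and 1.93, -0.01, 1.31 and 1.28 in SBR vehicle duodena. Irf1 stood at 4.28, 5.90 and 5.05 in sham and 5.83, 4.02, 4.68 and 4.49 in SBR vehicle duodena. Vehicle library 1 held the highest of the 11 values for 8 of 9 GTPases, and library 3 for 11 of 20 type I genes. The median over all genes was 3.08 log2 TPM in vehicle library 1 and 2.17, 2.61 and 2.13 in vehicle libraries 2 to 4. It was 2.62, 2.99 and 3.09 in sham libraries 1 to 3. Irgm1 stood at 2.63, 2.10 and 2.13 in sham and 3.35, 1.34, 2.31 and 2.56 in SBR vehicle duodena. Irgm2 stood at 3.93, 3.75 and 4.11 in sham and 6.14, 3.24, 3.57 and 4.54 in SBR vehicle duodena. The mean of the macrophage markers ran from 4.83 to 6.61 in sham and from 3.33 to 4.95 in SBR vehicle duodena, and its part was not tested. None of the further pathway genes passed, and Jak2 and Socs3 had the smallest p (1.68 and 1.63).

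Between treated and vehicle duodena none of 33 members passed limma or the unmoderated test, where limma called 0.272 percent of all genes. The medians were -0.82 for the 8 GTPases tested, all with lower means, and -0.15 for the type I genes. After centring they were -0.86 and -0.19. Without vehicle library 1 the GTPase median was -0.52, and without treated library 2 the type I median was 0.05. Zbp1, Gbp7, Usp18, Igtp and Iigp1 had an unadjusted p under 0.05 and lower means in treated duodena, 5 of 33 against 1.55 percent of all genes, and Ifit3 a higher mean (1.26 ± 0.47 SE). Zbp1 stood at 4.56, 3.63, 3.62 and 4.35 log2 TPM in vehicle and 2.50, 2.42, 3.17 and 2.97 in treated duodena, without overlap (-1.27 ± 0.40 SE, limma adjusted p = 0.444). Gbp7 stood at 3.33, 1.98, 2.57 and 2.86 in vehicle and 2.01, 2.09, 1.48 and 1.32 in treated duodena. Psmb8 stood at 5.61, 4.42, 4.25 and 4.58 in vehicle and 3.50, 3.45, 4.75 and 3.69 in treated duodena. Gbp7 and Psmb8 overlapped between groups. In treated duodena Irf1 stood at 4.58, 3.49, 4.70 and 3.95, Irgm1 at 1.90, 1.92, 2.21 and 1.68 and Irgm2 at 3.59, 2.37, 3.36 and 3.41. These 3 overlapped with the vehicle group given above. Against sham, no member of the treated duodena passed limma or the unmoderated test, where limma called 0.737 percent of all genes. An unadjusted p under 0.05 was reached by 4 members with higher means, against 4.86 percent of all genes, and by 3 with lower means, against 12 percent. None of the further pathway genes passed between treated and vehicle duodena, and Socs3 and Nlrc5 had the smallest p (-1.88 and -1.53).

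The regions were compared by testing the difference of the differences. For resection, ileum minus duodenum, limma called 0.0754 percent of 15923 genes and none of the 34 members, and none had an unadjusted p under 0.05. For WUSTL0717 it called 0.0251 percent and again no member, and none had an unadjusted p under 0.05. Of 34 estimates 31 were more negative in the ileum, whereas 47.3 percent of the estimates of all genes were positive. The members were measured in the same libraries, so the 31 are not separate observations. In sham mice Irgm1 was 3.26-fold higher in ileum than in duodenum (1.70 ± 0.49 SE, limma adjusted p = 0.0240), the 1 member called, where 10.8 percent of all genes were higher. No member was called without ileal sham library 1, ileal sham library 2 or duodenal sham library 3.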

How the data were processed

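RNA sequencing was done on 40 libraries of duodenum, ileum and liver. Per the labels and the methods, the authors aligned ribosome-depleted reads with STAR to GRCm38, counted unique reads with featureCounts, scaled them with edgeR and to TPM, took logs and applied ComBat with intestine and liver as batches. The deposited values are log2 TPM for 15958 genes, with a pseudocount that is not given in the sources used here and some values below 0. Batch correction done beforehand can make p-values too small or too large, and read depth cannot be recovered. Groups followed the labels. Where these do not say that samples are separate mice, p-values measure only the spread between samples.

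Genes with a mean of at least 1 log2 TPM in the fitted libraries were tested with limma 3.58.1 (R 4.3.3, trend), 1 fit per tissue over its 3 groups and 1 over both intestinal regions, with Benjamini-Hochberg adjustment and a threshold of 0.05. Exact two-sided permutation tests were run for single members. The members and all lists were chosen with earlier results of these data known. Values in each library, or the range in groups of more than 5, were given for Irf1, Irgm1 and Irgm2, for called members of the resection and drug comparisons and for the smallest p in each group of members. Of the pathway list, up to 6 called genes or else the 2 with the smallest p were named, and up to 3 markers of a cell type. Values of other members (Iigp1, Igtp, Usp18, Ifit3 and Oas1a in the ileum) were added after they were seen. Alternatives were no filter, a filter at 3, a pseudocount of 5, median centring, quantile normalization, library weights, a replicate block, the compared groups alone, an unmoderated test and leaving out each library. The code was tested on simulated data.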

Additional observations from a re-analysis of the deposited data

Results flagged for a closer look

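Of 119 sets of 4 to 10 libraries examined, 10 held a library far from the rest, where chance alone gives about 5 percent. The sets share libraries and members, so the 119 are not separate observations and the 10 cannot be weighed against that share. In the liver, sham library 2 lay below the other 4 sham livers for Dhx58 (2.565 log2 TPM, others 3.088 to 3.164), Isg15 (4.024, others 4.514 to 4.616), Oasl1 (3.737, others 4.628 to 4.85) and Usp18 (2.622, others 3.001 to 3.114). The same library was low for the mean of all members (3.038, others 3.44 to 3.478) and of the type I genes (3.2, others 3.565 to 3.66). SBR vehicle library 4 of the liver lay above the other 7 for Ifit3 (5.273, others 3.995 to 4.541), Usp18 (5.031, others 3.655 to 4.267) and Xaf1 (3.764, others 2.778 to 3.239). In the duodenum, treated library 2 was low for the mean of all members (2.833, others 3.369 to 3.427).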

How the results depend on the processing

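Of 218 recomputed counts of called members 186 were equal to the reported count or of like size. Of 1354 other values, for single members and for medians of the members, 1297 were unchanged. For a single member this means the same sign and the same side of the threshold. For a median it means a shift smaller than the spread between libraries. Members called between treated and vehicle livers, 0 as reported, were 3 after centring, 2 after quantile normalization, 3 with library weights and 0 to 1 without single libraries. The number of all genes called there also rose, from 655 to 3133, 2635 and 2812. With higher and lower calls pooled, the members' share was below that of all genes in these settings. Among lower calls alone after centring it was not, with 3 of 34 members beside 8.19 percent of all genes. Treated livers against sham gave 28 as reported and 15 after either centring or quantile normalization, with 4561, 3120 and 3189 of all genes called. SBR vehicle against sham duodena gave 2 after centring, 1 after quantile normalization and 2 with weights, where all genes called went from 0 to 96, 34 and 2579. Treated duodena against sham gave 2, 1 and 1 in that order, where all genes called went from 111 to 393, 248 and 1042. Treated ilea against sham, 2 as reported, gave 1 after centring, 1 after quantile normalization, 4 with weights, 1 with the replicate block, 0 by the unmoderated test and 0 to 2 without single libraries. Sham ileum against duodenum, 1 as reported, gave 2 after centring, 3 after quantile normalization, 6 with weights, 2 with the pseudocount and 0 to 2 without single libraries. Some small differences turned sign: Irf1 between SBR vehicle and sham duodena 0.08 after centring, Irf1 between SBR vehicle and sham ilea -0.0195 after quantile normalization and -0.17 with weights, Irgm1 between SBR vehicle and sham duodena -0.0246 with weights. Between treated and vehicle livers Irf1 was 0.00506 after centring, 0.00455 with weights and 0.077 with the replicate block, and Irgm1 was -0.0224 with weights. Without single libraries Irf1 ran from -0.73 to 0.0846 for resection in the duodenum, from -0.32 to 0.53 for resection in the ileum and from -0.0422 to 0.0608 for the drug in the liver. Likewise Irgm1 ran from -0.22 to 0.45 for resection in the duodenum and from -0.0508 to 0.11 for the drug in the liver, and Irgm2 from -0.14 to 0.82 for resection in the duodenum. The cause was not tested. Of 46 pairs of same-numbered libraries 11 had a correlation over 0.1 (range -0.32 to 0.447), and in 0 of 12 comparisons did every pair. Most pairs were of different groups and so of different mice. Between ileum and duodenum the correlations were 0.358, 0.0699 and 0.447 in sham. They were 0.131, -0.00264, -0.136 and 0.0835 in SBR vehicle and -0.0813, 0.323, -0.0669 and 0.206 in SBR WUSTL0717 mice. So few pairs cannot show whether regions share mice, and the fit over both regions treats the libraries as separate samples. With the replicate block, 30 members were called for resection in the liver.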
